A study of Mus musculus with 3 samples.

Results

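Granule neurons of the dentate gyrus are the principal neurons of the first relay of the hippocampus. They receive input from the entorhinal cortex and pass it on through mossy fibre axons to CA3 pyramidal neurons. They fire rarely under strong tonic GABAergic inhibition, and new ones are added in the adult mouse. Here they were taken as nuclei with at least 3 of 6 granule genes detected, with 1 UMI (unique molecular identifier, a counted RNA molecule) or more each. The 6 genes were Prox1, a homeobox transcription factor of granule neuron identity, C1ql3, a secreted synaptic organiser, Plk5, a polo-like kinase, Trpc6, a cation channel, Glis3, a zinc finger transcription factor, and Stxbp6, a SNARE-binding protein. Their summed UMIs also had to exceed 2 times each of the sums over CA1, CA2/CA3 and subicular genes, with at most 1 UMI of Gad1 plus Gad2 and at most 1 UMI of the glial genes Mog, Mag, Aqp4 and Csf1r. The rule found 4707 nuclei among 35322 barcodes.

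The study asked how an inhibitor of the deacetylase HDAC6 bears on the brain after chemotherapy. Nuclei came from frozen mouse hippocampus lysed with Triton X-100 and were run with 10x 3' version 3 chemistry, as 3 libraries. The first was from mice given doxorubicin and ACY-1083, an HDAC6 inhibitor, the second from mice given doxorubicin, a topoisomerase II poison, and the third from controls with no treatment. Each library pooled both hippocampi of 4 mice, and the labels used here state no dose, sex, strain or age. With 1 library per group there is no replicate. No test between treatments was possible, and intervals given beside values are 95% intervals for counting error only.

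Granule nuclei numbered 2487 of 12192 barcodes (20.4%, exact Clopper-Pearson interval 19.7 to 21.1) with doxorubicin plus ACY-1083. They numbered 1199 of 12221 (9.81%, 9.29 to 10.4) with doxorubicin and 1021 of 10909 (9.36%, 8.82 to 9.92) in control. The intervals of the doxorubicin and control libraries overlapped. The median granule nucleus had 4640 UMIs with doxorubicin plus ACY-1083, against 1725 with doxorubicin and 1663 in control, and a rule on detection takes more nuclei where depth is higher. After each nucleus was thinned to 1000 UMIs, with shallower ones left out, the shares were 8.20% of 11104 nuclei, 6.17% of 8869 and 6.09% of 7958 in the same order of libraries. Summed over granule nuclei, the UMIs were 12794610, 2365422 and 1946048. Barcodes common to a pair of libraries numbered 29 to 46, of which 1 was a granule nucleus in both.

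The doxorubicin plus ACY-1083 library stood apart in its makeup. The noncoding RNA Malat1 held 7.45% of its granule UMIs, against 23.4% with doxorubicin and 21.2% in control. Its counts also followed intron length, as described with its comparison. The rule genes showed the same pattern: Glis3, with 412385 bases of annotated intron, was detected in 88.7% of granule nuclei with doxorubicin plus ACY-1083, 31.9% with doxorubicin and 30.2% in control. C1ql3, with 5815 bases of intron, was detected in 78.9%, 90.9% and 88.0%. Both genes were also seen in oligodendrocyte nuclei, defined by Mog plus Mag, where Glis3 was detected in 12.9%, 5.07% and 2.71% and C1ql3 in 26.4%, 28.5% and 29.1%.

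Nuclei near the limits of the rule were as follows. Nuclei with exactly 3 markers made up 18.1% of the members with doxorubicin plus ACY-1083, 60.6% with doxorubicin and 62.0% in control. The 14 granule genes that the rule did not use summed in them to 4621, 1508 and 1666 CPM, which is the UMIs of a gene over all UMIs of the summed nuclei, on the usual scale of counts per 1e6. Nuclei just outside, with 2 markers, numbered 324, 1021 and 888, and the same 14 genes summed to 2898, 1423 and 1556 CPM. In the doxorubicin and control libraries many nuclei outside the rule thus had similar levels of granule genes.

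The label was checked on the 14 granule genes outside the rule. They summed to 5040, 1528 and 1710 CPM in granule nuclei of the doxorubicin plus ACY-1083, doxorubicin and control libraries. In CA1 nuclei, found by the same kind of rule on Fibcd1, Mpped1, Man1a, Ndst3 and Wfs1, they summed to 861, 514 and 436 CPM. In CA2/CA3 nuclei, found on Nectin3, Rnf182, Trps1 and Ccbe1, they summed to 958, 364 and 372 CPM. Oligodendrocyte nuclei held 2882, 951 and 980 CPM, at medians of 1519, 794 and 786 UMIs. Their definition set no limit on granule genes, and their own expression of the 14 genes was not tested. Sums in granule nuclei were thus less than 2-fold above those in oligodendrocyte nuclei. Of the 14, 11 had at least 20 CPM in every library in granule or in pyramidal nuclei. A gene could thus enter through the granule nuclei alone, so the next counts are descriptions and no check. Of the 11 members, 10 were at least 1.5-fold higher in granule than in CA1 nuclei in all 3 libraries, and 9 were so against CA2/CA3 nuclei. Of all genes 8.45% and 12.9% were so. Genes of other cells were also present. The choroid plexus list, led by Ttr, the thyroxine carrier, summed to 897, 3523 and 1409 CPM in granule nuclei, and to 2256, 4366 and 1985 CPM in oligodendrocyte nuclei. No gene of that list was at 0 in granule nuclei of any library.

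Granule nuclei were set beside pyramidal nuclei to describe how they are built. The rule chose nuclei on this contrast, so the values are descriptions. Against CA1 nuclei, 515 of 6093 genes (8.45%) were at least 1.5-fold higher in granule nuclei in all 3 libraries and 419 (6.88%) at least 1.5-fold lower. Against CA2/CA3 nuclei, 781 of 6031 genes (12.9%) were higher and 354 (5.87%) lower. CA1 nuclei numbered 837, 136 and 125, and CA2/CA3 nuclei 679, 137 and 145, in the doxorubicin plus ACY-1083, doxorubicin and control libraries.

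Among genes of known granule expression, Dock10, a guanine nucleotide exchange factor on chromosome 1 (80501073 to 80758527, GRCm38), had 887 CPM in granule nuclei against 43.1 CPM in CA1 nuclei with doxorubicin plus ACY-1083. It had 386 against 34.3 CPM with doxorubicin and 416 against 17.8 CPM in control. All 3 libraries thus placed it over 10-fold higher in granule nuclei. Calb1, the calcium buffer calbindin (chromosome 4, 15881264 to 15908064), had 97.6, 104 and 106 CPM in granule nuclei, against 48.1, 58.8 and 38.1 CPM in CA1 nuclei and 6.26, 12.99 and 8.42 CPM in CA2/CA3 nuclei. Calbindin was thus high in granule, intermediate in CA1 and low in CA2/CA3 nuclei of every library. Rfx3, a winged helix transcription factor, was 7.44-, 6.95- and 5.92-fold higher in granule than in CA1 nuclei. Il1r1, the interleukin 1 receptor (chromosome 1, 40225080 to 40317257), had 52.7, 27.9 and 23.1 CPM in granule nuclei. In CA1 nuclei it had 1.55 CPM with doxorubicin plus ACY-1083 and no UMI in the other libraries.

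Other genes among the highest against CA1 nuclei were Cald1, Adarb2, Tmem108, Cdh9, St18 and Emp2. Cald1, which encodes the actin-binding protein caldesmon, had 153, 302 and 310 CPM in granule nuclei against 5.18, 9.80 and 17.8 CPM in CA1 nuclei. St18 is also a marker of oligodendrocytes and Adarb2 of interneurons, and both were set aside as markers of those cells in the lists. Adarb2 nevertheless had 1624, 322 and 380 CPM in granule nuclei against 32.9, 19.6 and 15.2 CPM in CA1 nuclei. The lowest were Slc9a2, Pde11a, Scube1, Galntl6, Ptpru, Cpne7, Adgrl2 and Runx1t1. Cpne7, a copine, had 25.6, 107 and 96.6 CPM in granule nuclei against 465, 1190 and 1360 CPM in CA1 nuclei.

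Against CA2/CA3 nuclei the highest were Slc4a4, Cntnap5a, Dock10, Pde7b, Tgfbr1, Epb41, Gabrd and Cygb. Cntnap5a, a neurexin family adhesion gene, was 20.7-, 22.7- and 23.4-fold higher in granule nuclei. Slc4a4, a bicarbonate transporter also listed among astrocyte genes, had 621, 234 and 288 CPM against 29.6, 7.42 and 11.8 CPM. The lowest were Olfr553, Ifi203, Scube1, Col12a1, Csf2rb2, Cntnap5c, Mndal and Tbata. Ifi203 had 1.02, 3.80 and 3.60 CPM in granule nuclei against 40.7, 102 and 101 CPM in CA2/CA3 nuclei.

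**Figure D1:**
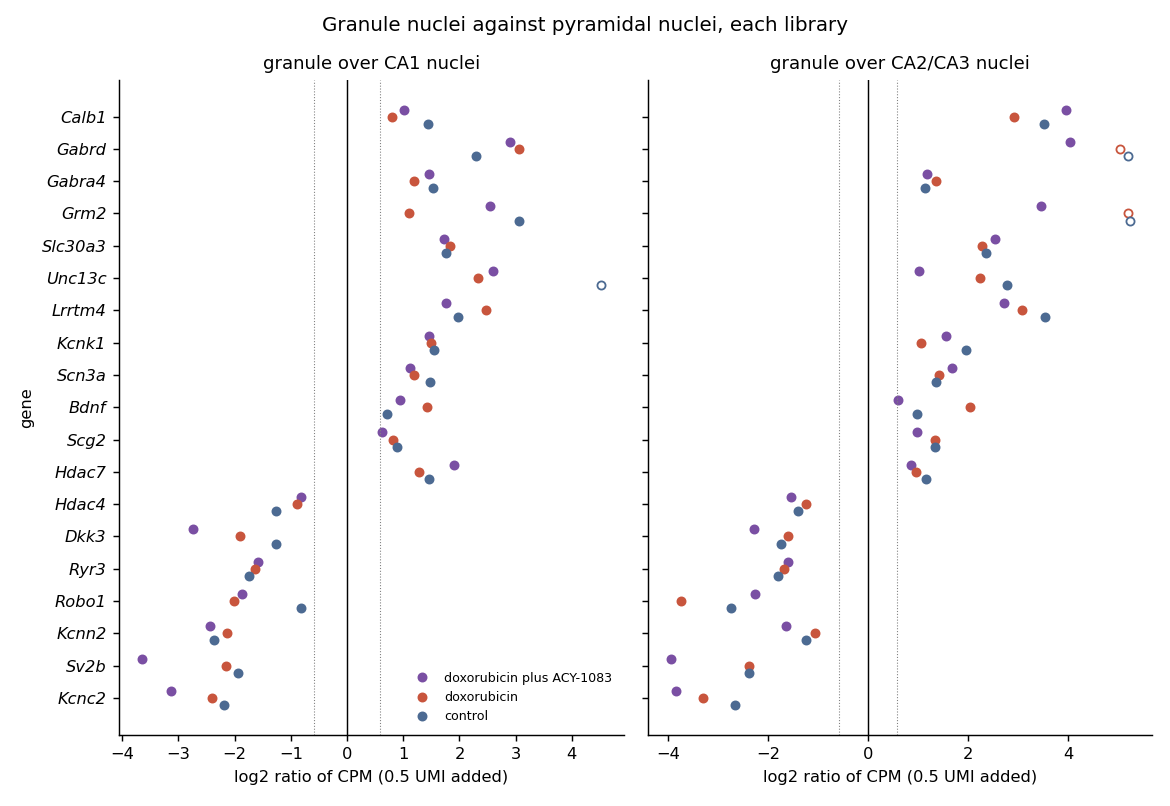
Log2 ratio of CPM (0.5 UMI added to each sum) of granule over CA1 nuclei (left panel) and over CA2/CA3 nuclei (right panel) for 19 genes in each of the 3 libraries; dotted lines mark 1.5-fold, and open circles have no UMI in the pyramidal nuclei. Gabrd, Grm2 and Slc30a3 lie right of the upper line in every library, and Sv2b and Kcnc2 left of the lower line.

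Among receptor genes, Gabrd, the delta subunit of extrasynaptic GABA-A receptors that carry tonic inhibition (chromosome 4, 155384980 to 155398112), had 37.3, 30.4 and 30.8 CPM in granule nuclei against 4.92, 2.45 and 5.07 CPM in CA1 nuclei. In CA2/CA3 nuclei it had 2.22 CPM with doxorubicin plus ACY-1083 and no UMI in the other libraries. Gabra4, which pairs with the delta subunit in granule neurons, was 2.75-, 2.35- and 2.97-fold higher than in CA1 nuclei. Of 10 GABA-A receptor genes measured, 2 were higher and 1 lower than in CA1 nuclei, beside 8.45% and 6.88% of all genes. Against CA2/CA3 nuclei 5 of 9 were higher and 0 lower, beside 12.9% and 5.87% of all genes. Grm2, a presynaptic metabotropic glutamate receptor of mossy fibres, had 20.8, 33.8 and 31.3 CPM in granule nuclei against 3.49, 14.7 and 2.54 CPM in CA1 nuclei. Grik4, a high-affinity kainate receptor subunit, was lower than in CA2/CA3 nuclei, at 302, 47.3 and 48.3 CPM against 1052, 85.4 and 91.0 CPM.

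Among genes of the release machinery, Slc30a3, the vesicular zinc transporter, had 104, 248 and 280 CPM in granule nuclei, against 31.7, 68.6 and 81.2 CPM in CA1 nuclei and 17.99, 50.1 and 53.9 CPM in CA2/CA3 nuclei. Unc13c, a vesicle priming factor, was higher than in CA1 nuclei in each library, at 28.4, 30.4 and 28.8 CPM against 4.66, 4.90 and 0 CPM. Sv2c and Sv2b, vesicle glycoproteins of 1 family, went opposite ways. Sv2c had 95.9, 38.5 and 34.4 CPM in granule nuclei against 2.20, 7.35 and 7.61 CPM in CA1 nuclei, and Sv2b had 31.3, 32.6 and 34.9 CPM against 393, 144 and 134 CPM. In all, 5 of 30 presynaptic genes were higher and 4 lower than in CA1 nuclei, beside 8.45% and 6.88% of all genes. Against CA2/CA3 nuclei 7 of 30 were higher and 5 lower, beside 12.9% and 5.87%, and most of the list was not called either way. Lrrtm4, a postsynaptic adhesion gene, was 3.38-, 5.69- and 3.97-fold higher than in CA1 nuclei.

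Ion channel genes differed in both directions. Kcnc2, a fast delayed rectifier, had 42.8, 10.1 and 13.4 CPM in granule nuclei against 375, 53.9 and 60.9 CPM in CA1 nuclei, while Kcnk1, a leak channel, was 2.74-, 3.02- and 3.10-fold higher than in CA1 nuclei. Kcnn2, a small-conductance calcium-activated channel, was lower than in CA1 nuclei, at 165, 74.8 and 73.0 CPM against 896, 328 and 378 CPM. Of 25 potassium channel genes measured, 5 were higher and 5 lower than in CA1 nuclei, beside the same 8.45% and 6.88% of all genes. Against CA2/CA3 nuclei 8 were higher and 4 lower, beside 12.9% and 5.87%. Calcium release channels were split as well: Ryr3 was lower than in both pyramidal types in all 3 libraries, and Ryr1 was 4.17-, 12.5- and 5.68-fold higher than in CA2/CA3 nuclei.

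Guidance and adhesion genes were the list with the most members lower in granule nuclei. Of 34 measured against CA1 nuclei, 9 were higher and 12 lower, and of 32 against CA2/CA3 nuclei, 4 were higher and 12 lower, beside the shares of all genes given above. Robo1, a Slit receptor, had 164, 6.76 and 14.9 CPM in granule nuclei against 784, 92.8 and 101 CPM in CA2/CA3 nuclei. Bdnf, the neurotrophin stored in mossy fibres, was 1.93-, 2.76- and 1.67-fold higher than in CA1 nuclei. Of 9 deacetylase genes measured 1 was higher and 1 lower than in CA1 nuclei, near the 8.45% and 6.88% of all genes. Hdac7 had 128, 275 and 295 CPM against 34.2, 113 and 107 CPM in CA1 nuclei. Hdac4 had 46.3, 28.3 and 25.7 CPM against 81.6, 51.4 and 60.9 CPM.

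Doxorubicin against control was read in granule nuclei gene by gene. Of 7457 genes with a mean of at least 20 CPM, 105 (1.41%) were at least 1.5-fold higher with doxorubicin and 149 (2%) at least 1.5-fold lower. The median log2 ratio was -0.06, and 39.1% of genes lay above a ratio of 1. With TMM scaling, a normalization that centres most genes, the counts were 168 higher and 99 lower, so the balance of the directions depends on the scaling. With 50 CPM as the minimum they were 23 and 11, and with 5 CPM 555 and 646.

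The 12 genes named as higher, ranked by the interval bound nearest to 1, held 3 complex I subunits and several short transcripts that glia or fluid-secreting cells express strongly. Id3, a helix-loop-helix inhibitor induced by BMP (chromosome 4, 136143497 to 136145755), had 30.4 CPM with doxorubicin and 11.3 CPM in control, from 72 and 22 UMIs. Its ratio was 2.69 (1.65 to 4.56), and 4.79 after thinning, there from 27 and 5 UMIs only. Of 11 Wnt, BMP and Notch genes measured, Id3 among them, 2 lay above 1, with a median log2 ratio of -0.12. Ndufa7 (chromosome 17, 33824572 to 33838317) had 66.0 CPM with doxorubicin and 33.9 CPM in control, Ndufa4 (chromosome 6, 11900292 to 11907497) had 222 and 138 CPM, and Ndufa5 had 90.5 and 51.4 CPM. Dbi, the acyl-CoA binding protein (chromosome 1, 120113280 to 120121078), had 140 CPM with doxorubicin and 71.4 CPM in control, a ratio of 1.97 (1.61 to 2.41). Tmsb4x, the actin monomer-binding thymosin beta 4, had 576 and 371 CPM.

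Other named genes that were higher with doxorubicin were Fxyd1 (41.9 against 17.5 CPM), Apod (123 against 63.2 CPM), Fabp5 (62.1 against 31.3 CPM), Etfb (36.8 against 17.5 CPM), Ptgds (595 against 394 CPM) and Rer1 (56.2 against 29.8 CPM). Apod, Fabp5, Ptgds and Fxyd1 are known from glia, meninges or choroid plexus. All 12 ratios were above 1 in oligodendrocyte nuclei too, where Ndufa5 was 2.21-fold, Fabp5 2.07-fold and Id3 1.68-fold higher with doxorubicin. Ptgds was 1.09-fold higher there. In granule nuclei the choroid plexus list was 2.50-fold (2.39 to 2.61) higher with doxorubicin, at 3523 against 1409 CPM with 9 of 11 genes higher. The astrocyte list was 1.16-fold higher, at 1984 against 1713 CPM with 8 of 10 genes higher. The endothelial and mural list was 1.49-fold higher, at 71.9 against 48.3 CPM with 9 of 9 genes higher. In oligodendrocyte nuclei its ratio was 0.698 (0.484 to 0.999). Other lists differed less in granule nuclei. The oligodendrocyte list had a ratio of 1.01 with 4 of 8 genes higher. The oligodendrocyte precursor list had 0.831 with 2 of 6, and the microglia list 1.17 with 5 of 8. These list counts took every member at any level. At a mean of at least 20 CPM, 39.1% of all genes lay above 1. So did 3 of 3 choroid plexus, 7 of 8 astrocyte, 2 of 5 oligodendrocyte and 1 of 1 microglia genes. Of the endothelial and mural and the precursor genes, 0 reached that level. The part of these cells' RNA in the named genes was not tested.

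**Figure D2:**
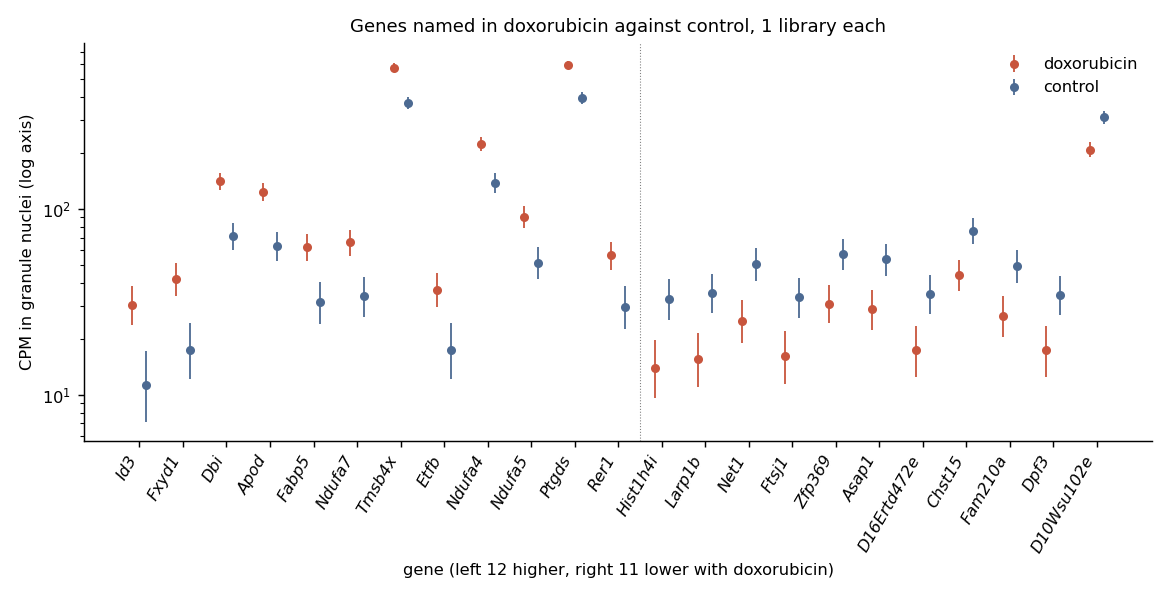
CPM in granule nuclei (log axis) of the 12 genes named as higher and 11 named as lower with doxorubicin, in 1 doxorubicin and 1 control library; bars are exact 95% Poisson intervals. Ptgds and Tmsb4x are the most abundant, at 595 and 576 CPM with doxorubicin, and most genes on the right lie under 50 CPM with doxorubicin.

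The 11 genes given here as lower were mostly of modest level. Chst15, a chondroitin sulfate sulfotransferase (chromosome 7, 132235780 to 132317228), had 44.0 CPM with doxorubicin and 76.1 CPM in control, a ratio of 0.578. Net1, a guanine nucleotide exchange factor, had 24.9 and 50.4 CPM, and Asap1, a GTPase-activating protein for Arf, had 28.7 and 53.4 CPM. Dpf3, a subunit of the BAF chromatin remodelling complex, had 17.3 CPM with doxorubicin and 34.4 CPM in control.

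Larp1b, Ftsj1, Zfp369, D16Ertd472e, Fam210a and D10Wsu102e were lower as well, with ratios of 0.441, 0.481, 0.541, 0.496, 0.540 and 0.669. The ratio of Ftsj1 was 0.823 after thinning. Hist1h4i, with a ratio of 0.424, is 1 of a family of near-identical histone H4 genes, so its value is uncertain. In oligodendrocyte nuclei 10 of these 11 also had a ratio under 1, with Chst15 at 0.630, and Larp1b had 1.27. Counts there were small, and whether these differences belong to granule nuclei was not tested.

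The list of nuclear-encoded oxidative phosphorylation genes was shifted as a whole. Of 73 members measured, 69 had a ratio above 1 with doxorubicin over control, beside 39.1% of all genes, and 9 were at least 1.5-fold higher, with a list median log2 ratio of 0.37. Their sum was 7126 CPM with doxorubicin and 5571 CPM in control, 1.28-fold higher (1.25 to 1.31). Besides Ndufa7 and Ndufa5, the member with the highest ratio was Atp5e, the epsilon subunit of ATP synthase, at 60.5 against 36.5 CPM. The median stayed above 0 under each alternative run, at 0.44 with TMM scaling, 0.33 after thinning and 0.26 with at least 4 markers. The sum was also higher with doxorubicin in oligodendrocyte nuclei (1.44-fold), CA1 nuclei (1.31-fold) and CA2/CA3 nuclei (1.09-fold). The 8 mitochondrially encoded genes measured all had a ratio above 1, with mt-Atp6 at 62.6 CPM with doxorubicin and 27.2 CPM in control. After thinning 5 of these 8 did. The 13 mitochondrially encoded genes summed to 520 CPM with doxorubicin and 363 CPM in control, 1.43-fold higher (1.30 to 1.57). Their sum was 1.62-fold higher in CA1 and 1.30-fold higher in oligodendrocyte nuclei. In CA2/CA3 nuclei it went the other way, at 236 CPM with doxorubicin and 445 CPM in control, a ratio of 0.530 (0.425 to 0.657) with 10 of 13 genes lower.

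The promoters of this list are shown as a description, and the ratios of members with and without the motif were not compared. The motif of NRF1, a transcription factor known to act on respiratory chain genes, was searched as GCGCA, any base, then GCGC, on both strands in the 250 bases before each RefSeq start site. It was present in 13 of 62 genes of the list that have a window (21.0%) and in 1144 of all 27025 genes (4.23%). Shown here, in lower case with the motif in capitals and 5′ to 3′ on the minus strand, are the windows of Ndufa5, a complex I subunit with 1 match that was named above, and of Ndufb4, a complex I subunit with 3 matches. The sequences are from RefSeq on GRCm38.p6.
Ndufa5, chr6:24527691-24527940: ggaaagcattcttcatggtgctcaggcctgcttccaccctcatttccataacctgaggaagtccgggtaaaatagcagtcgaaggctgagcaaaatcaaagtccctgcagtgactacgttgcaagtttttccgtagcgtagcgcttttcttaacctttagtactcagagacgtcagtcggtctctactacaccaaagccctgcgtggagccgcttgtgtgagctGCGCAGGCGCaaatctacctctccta
Ndufb4, chr16:37654369-37654618: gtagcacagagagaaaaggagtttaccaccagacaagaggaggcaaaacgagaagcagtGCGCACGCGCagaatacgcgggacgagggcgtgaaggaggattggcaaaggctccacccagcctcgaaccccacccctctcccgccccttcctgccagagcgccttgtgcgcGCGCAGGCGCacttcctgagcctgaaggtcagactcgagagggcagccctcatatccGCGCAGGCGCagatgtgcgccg
Ndufb4 was 1.52-fold higher with doxorubicin (1.18 to 1.97). The match of Ndufa5 begins 26 bases before the start site. A match describes the letters only. None of the 37 activity genes and none of the 19 granule genes with a window held the motif. Beside 4.23% of all genes, sets this small cannot show a lack of it.

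Neuronal gene lists, taken over members with a mean of at least 20 CPM, lay near the median of all genes. Over all genes 39.1% had a ratio above 1 with doxorubicin over control. Of 24 potassium channel genes 6 did, with a list median of -0.10, and of 23 calcium handling genes 6, with a median of -0.07. Of 31 presynaptic genes 16 lay above 1 and none was at least 1.5-fold off in either direction. Kcnc1, a fast delayed rectifier, had 109 CPM with doxorubicin and 146 CPM in control, and Gabrb1, a GABA-A receptor subunit, had 157 and 203 CPM. Cck, a neuropeptide, had 209 CPM with doxorubicin and 166 CPM in control, and Calm2, a calmodulin gene, had 460 and 334 CPM. The medians of the GABA-A receptor and activity lists, -0.02 and -0.06, were above 0 with TMM scaling, at 0.05 and 0.01. Of 12 granule genes outside the rule 3 lay above 1, with Pdzd2 at 104 CPM with doxorubicin and 150 CPM in control.

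**Figure D3:**
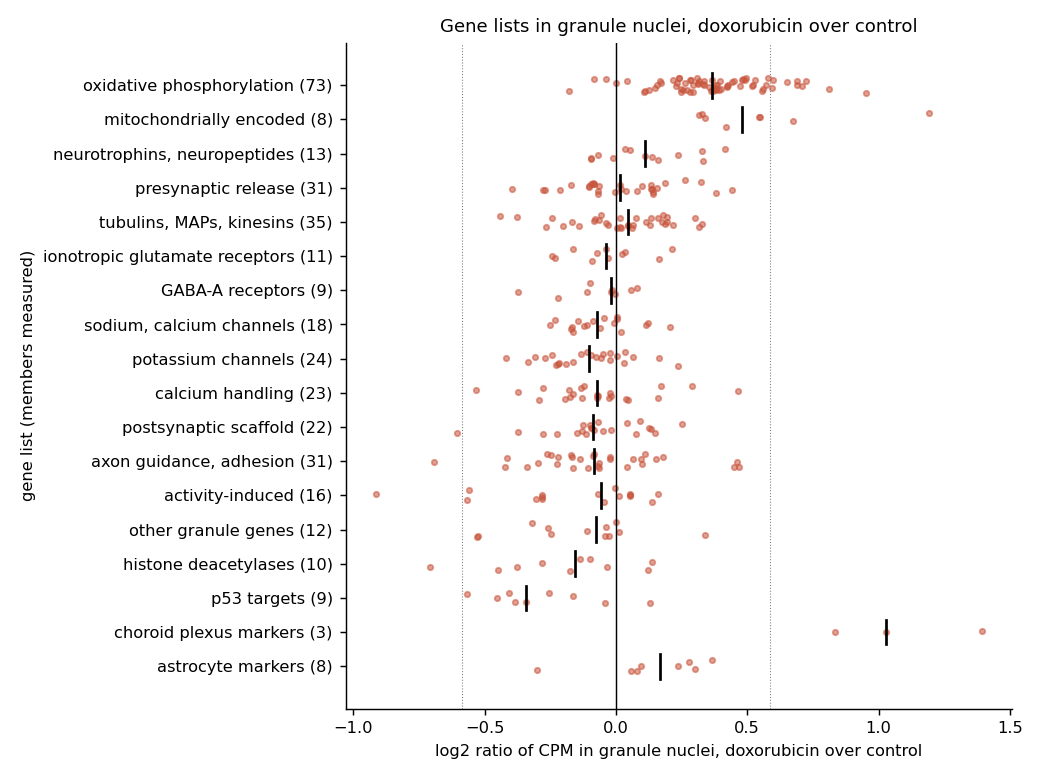
Log2 ratio of CPM in granule nuclei, doxorubicin over control, for members of 18 gene lists with a mean of at least 20 CPM (points, spread vertically for view); black bars are list medians and dotted lines mark 1.5-fold. The oxidative phosphorylation list has its median at 0.37 and the p53 target list at -0.34.

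Genes that answer DNA damage were described by 2 lists. Of 9 p53 targets measured, 1 had a ratio above 1, and the list median was -0.34. Btg2, an antiproliferative gene that is also induced by activity, had 40.6 CPM with doxorubicin and 60.1 CPM in control. Among topoisomerase and repair genes 9 of 16 lay above 1, with a median of 0.04, beside 39.1% of all genes. After thinning 4 of 15 did, with a median of -0.12, and the median was also under 0 with at least 4 or at least 2 markers, at -0.02 and -0.05. Trp53bp1, which marks double strand breaks, had 126 CPM with doxorubicin and 169 CPM in control, a ratio of 0.743 (0.633 to 0.871), and Xrcc4, a ligation factor of end joining, had 35.5 and 52.9 CPM. Among deacetylase genes 2 of 10 lay above 1, and Hdac3, the catalytic subunit of the NCoR corepressor complex, had 34.2 CPM with doxorubicin and 56.0 CPM in control.

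Steroid and clock genes gave single differences. Zbtb16, a zinc finger gene induced by glucocorticoids, had 58.3 CPM with doxorubicin and 89.4 CPM in control, and Nr3c1, the glucocorticoid receptor, had 50.7 and 69.9 CPM. The difference of Zbtb16 turned after thinning, with a ratio of 1.10 against 0.652, and the ratio of Nr3c1 was 0.922 after thinning. Per2, a clock repressor, had 30.4 CPM with doxorubicin and 19.0 CPM in control, a ratio of 1.60 (1.06 to 2.45). Egr3, an activity-induced transcription factor, had 14.4 CPM with doxorubicin and 27.2 CPM in control.

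Hdac6, the target of ACY-1083 (chromosome X, 7930120 to 7947889), had 26.8 CPM (24.0 to 29.8) in granule nuclei with doxorubicin plus ACY-1083, 56.2 CPM (47.1 to 66.6) with doxorubicin and 73.0 CPM (61.5 to 86.0) in control. Its doxorubicin over control ratio was 0.771 (0.604 to 0.983), and 0.982 after thinning. Its doxorubicin plus ACY-1083 over doxorubicin ratio was 0.477 (0.389 to 0.587) in CPM, which in that library follow intron length, as given next. Scaled to genes with under 1 kb of intron it was 1.23 (1.01 to 1.52), so its direction depends on the scaling. These levels say nothing of enzyme activity, which is what the inhibitor blocks.

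Doxorubicin plus ACY-1083 against doxorubicin could not be read gene by gene in the same way. Of 7476 genes, 1986 (26.6%) were at least 1.5-fold higher and 3044 (40.7%) at least 1.5-fold lower. With TMM scaling the balance turned, with 2869 higher and 1644 lower. Across 7474 of these genes, which are not independent replicates, Spearman's rank correlation between the log2 ratio and annotated intron length was 0.75, and across 7456 genes it was -0.12 for doxorubicin over control. Genes with over 100 kb of intron had a median log2 ratio of 1.30, and those with under 1 kb a median of -1.46. The header of this library also names a later release of the counting software than those of the other libraries. The treatment and the way of counting cannot be told apart for long genes.

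**Figure D4:**
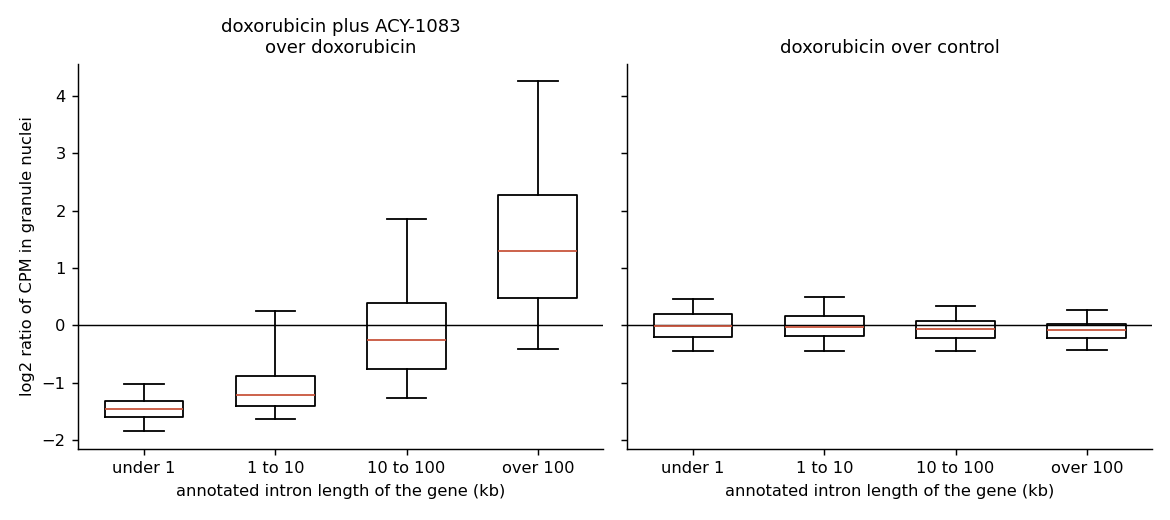
Log2 ratio of CPM in granule nuclei by annotated intron length of the gene, for doxorubicin plus ACY-1083 over doxorubicin (left panel) and doxorubicin over control (right panel); boxes are quartiles, lines medians and whiskers the 5th and 95th percentiles over genes. On the left the medians climb from -1.46 under 1 kb to 1.30 over 100 kb, and on the right they lie between -0.09 and -0.01.

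Genes with under 1 kb of intron depend least on intron counting. Of 365 such genes without Malat1, 362 (99.2%) were at least 1.5-fold lower and 1 (0.274%) at least 1.5-fold higher with doxorubicin plus ACY-1083. Scaled to the total of these genes, 8 (2.19%) were higher and 12 (3.29%) lower. Nnat, an imprinted proteolipid (chromosome 2, 157560078 to 157562522), was the highest by the naming rule. It had 86.7 CPM with doxorubicin plus ACY-1083 and 69.3 CPM with doxorubicin, a scaled ratio of 3.23 (2.74 to 3.83). Its unscaled ratio was 1.01 after thinning. Gng3, a G protein subunit, had a scaled ratio of 1.94, Cfl2, a cofilin, 1.70, Tmem223 1.63, Mcl1, a survival factor of the Bcl-2 family, 1.56, and Armcx1, a mitochondrial trafficking gene, 1.49. In unscaled CPM these 5 were below 1, with ratios of 0.752 for Gng3, 0.659 for Cfl2, 0.632 for Tmem223, 0.602 for Mcl1 and 0.576 for Armcx1, against 1.25 for Nnat. With TMM scaling Gng3 had 1.07 and the other four stayed under 1. Nnat was higher in CA1 nuclei as well, at 219 CPM with doxorubicin plus ACY-1083 and 85.7 CPM with doxorubicin.

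The lowest were Neat1, Ring1, Kcnq1ot1, Snhg20, H2afj and Jun, 3 of them noncoding RNAs. Neat1, the scaffold RNA of paraspeckles, had 24.6 CPM with doxorubicin plus ACY-1083 and 142 CPM with doxorubicin, a scaled ratio of 0.449 (0.384 to 0.525). Kcnq1ot1, an antisense RNA within Kcnq1, had 552 and 1968 CPM and a scaled ratio of 0.725. Jun, an AP-1 transcription factor, had 32.7 and 112 CPM and a scaled ratio of 0.758. Malat1, another abundant nuclear RNA, was lower in the same library, as given above. A part of RNA class or handling in these ratios was not tested.

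Nuclei marked by activity were compared with the other granule nuclei within each library, with the libraries as replicates. They had at least 2 UMIs over Fos, Fosb, Junb, Arc, Npas4, Egr1, Egr4 and Nr4a1, immediate early genes that neurons switch on after firing. They numbered 38 of 2487 (1.53%) with doxorubicin plus ACY-1083, 26 of 1199 (2.17%) with doxorubicin and 26 of 1021 (2.55%) in control. In oligodendrocyte nuclei, at medians of 1519, 794 and 786 UMIs, the shares were 1.77%, 2.17% and 3.20%. The share in granule nuclei was thus not above that in oligodendrocyte nuclei, and what part of it is free RNA was not tested.

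Without the 8 genes that define the split, edgeR's quasi-likelihood test with library as a block found 39 of 10315 genes (0.378%) higher and 8 (0.0776%) lower at an adjusted p under 0.05. Of 24 other activity-induced genes tested, 5 were higher and none lower, with a median log2 ratio of 0.60 beside -0.12 over all genes. They were the nuclear receptors Nr4a2 and Nr4a3, the scaffold Homer1, the transcription factor Egr3 and the sorting receptor Sorcs3. Nr4a2 had 74.2, 171 and 220 CPM in marked nuclei of the doxorubicin plus ACY-1083, doxorubicin and control libraries, against 11.7, 21.6 and 26.2 CPM in the others. Its log2 ratio was 2.80 (SE 0.30, adjusted p 2.53e-16 by edgeR), and it was higher in 3 of 3 libraries. Nr4a3 had 51.96, 107 and 41.3 CPM in marked nuclei, from 14, 10 and 3 UMIs. In the others it had 6.63, 7.92 and 6.94 CPM, so it was also higher in 3 of 3.

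Homer1 had 241, 64.1 and 151 CPM in marked nuclei against 75.6, 70.4 and 69.4 CPM in the others, so it was not higher in the doxorubicin library. Egr3 had 11.1, 21.4 and 220 CPM against 7.59, 14.1 and 19.8 CPM, with 16 of its 21 UMIs in marked nuclei from control. Bdnf, with a log2 ratio of 0.42 (SE 0.27), did not pass the test. The other genes with the smallest p that were higher were Chrm3, Pde10a, Galntl6, Meg3, Etl4, Gm47423 and Snhg11. Chrm3, a muscarinic receptor, had 323, 42.7 and 0 CPM against 45.99, 8.80 and 8.54 CPM, from 87, 4 and 0 UMIs, so its call rests on the doxorubicin plus ACY-1083 library.

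Several measures moved with the activity mark. Of the 39 genes called higher, 30 (76.9%) were also at least 1.5-fold higher in CA1 than in granule nuclei in all 3 libraries. Among them were Nr4a2, Nr4a3, Homer1, Galntl6 and Cpne7. Of 6093 genes with at least 20 CPM in every library in either class, 419 (6.88%) were so. The count over the 39 had no such minimum. The 6 granule rule genes summed to 2572, 2009 and 2589 CPM in marked nuclei against 2803, 3038 and 3029 CPM in the others. The CA1 genes of the rule summed to 134, 150 and 41.3 CPM against 80.0, 76.6 and 71.0 CPM. Marked nuclei had a median of 6147, 2031 and 2230 UMIs against 4618, 1710 and 1657. The part of nuclei or RNA of other neurons in the calls was not tested. Ttr, Apoe, Cst3, AY036118, Hsp90ab1, Rpl6, Rps23 and Rbx1 were lower, with Ttr at 568, 1346 and 826 CPM in marked nuclei against 778, 3313 and 1247 CPM in the others. Without the doxorubicin plus ACY-1083 library 6 genes were higher and 1 lower.

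Nuclei marked as immature had at least 2 of Dcx, Sox11, Sox4, Igfbpl1 and Draxin detected, genes of newborn granule neurons. They numbered 33 (1.33%), 9 (0.751%) and 8 (0.784%) of the granule nuclei with doxorubicin plus ACY-1083, doxorubicin and control, and such nuclei made up 1.05%, 0.242% and 0.985% of oligodendrocyte nuclei. The edgeR test found 15 of 9984 genes (0.15%) higher and 3 (0.03%) lower. None of 10 further immature genes tested was called by edgeR, with 0 of them at an unadjusted p under 0.05, beside 576 of all genes. DESeq2 called 2 genes higher and 0 lower over all genes. Of 14 mature granule genes tested none was called, with 5 at an unadjusted p under 0.05 and a median log2 ratio of -0.34 beside -0.18 over all genes. Calb1, which mature granule neurons express, had 61.4, 57.4 and 31.8 CPM in marked nuclei against 98.2, 105 and 108 CPM in the others, with an adjusted p of 0.614.

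The genes called higher in marked nuclei began with Pcdh15, a cadherin. It had 297, 38.2 and 127 CPM in marked nuclei against 71.1, 5.62 and 7.84 CPM in the others. Its log2 ratio was 2.12 (SE 0.31, adjusted p 3.84e-08 by edgeR), and it was higher in 3 of 3 libraries. Its UMIs in marked nuclei were 63, 2 and 4, so the doxorubicin and control values rest on few UMIs. Cit, Khdrbs3, Kcnc2, Slit2, Dpp10, Etl4, Meg3, Sox5 and Cpne7 followed, and Ttr, Apoe and Cst3 were lower. Kcnc2 had 40, 0 and 0 UMIs in marked nuclei, Dpp10 88, 2 and 0, and Sox5 28, 1 and 1, so these calls rest on the doxorubicin plus ACY-1083 library. Without that library 3 genes were called higher and 4 lower, without the doxorubicin library 6 and 0, and without the control library 13 and 9. Of the 15 genes called higher, 12 (80.0%) were also at least 1.5-fold higher in CA1 than in granule nuclei in all 3 libraries. The median depth of marked nuclei was 5243, 5147 and 3579 UMIs, against 4636, 1714 and 1659 in the others. The 6 granule rule genes summed to 2474, 2084 and 1843 CPM in marked nuclei against 2803, 3018 and 3032 CPM in the others. The CA1 genes of the rule summed to 61.4, 172 and 222 CPM against 81.5, 77.4 and 67.4 CPM. The oligodendrocyte list summed to 340, 344 and 1652 CPM against 496, 689 and 658 CPM. A part of RNA of other cells in these calls was not tested.

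Position along the long axis of the hippocampus was described through Lct, the lactase gene that marks dorsal granule neurons of the mouse, and Trhr, the thyrotropin-releasing hormone receptor that marks ventral ones. Lct was detected in 18.5% of granule nuclei with doxorubicin plus ACY-1083, 3.59% with doxorubicin and 3.33% in control, and Trhr in 6.55%, 1.58% and 1.67%. In oligodendrocyte nuclei Lct was detected in 2.41%, 1.21% and 1.23% and Trhr in 1.53%, 1.45% and 0.739%. With doxorubicin plus ACY-1083 both lay above that background, and with doxorubicin and in control Trhr was near it. Both genes together were seen in 18 nuclei of the doxorubicin plus ACY-1083 library.

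Nuclei with Trhr and no Lct numbered 145, 18 and 17, and nuclei with Lct and no Trhr 442, 42 and 34. The rule set for this split asked for 20 nuclei in each sum, so no test over libraries was run, although the immature split was tested with smaller sums. In the doxorubicin plus ACY-1083 library alone, 438 of 6823 genes (6.42%) were at least 1.5-fold higher in Trhr nuclei and 350 (5.13%) at least 1.5-fold lower. Median depth was 6768 UMIs in Trhr nuclei and 5304 in Lct nuclei. Kcnmb2, an auxiliary subunit of large-conductance potassium channels, had 84.9 CPM in Trhr nuclei and 3.58 CPM in Lct nuclei, a ratio of 23.7 (11.9 to 53.5). Kcnmb2 is also in the list of GABAergic markers, and a part of interneuron RNA in its ratio was not tested. Sgcz, a sarcoglycan, had 561 and 65.7 CPM, Tenm4, a teneurin of wiring, 460 and 76.5 CPM, and Scn9a, a sodium channel, 135 and 12.3 CPM. Cntn4, a contactin, had 360 and 73.7 CPM.

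On the Lct side, Clmp, an adhesion molecule, had 8.58 CPM in Trhr nuclei and 100.4 CPM in Lct nuclei, a ratio of 0.0855 (0.0386 to 0.165). Syndig1, a regulator of AMPA receptors, had 13.4 and 113 CPM, and Robo3, a Slit receptor family member, 12.4 and 68.9 CPM. Pde4d, a cyclic AMP phosphodiesterase, had 127 and 380 CPM, Unc5d, a netrin receptor, 97.3 and 279 CPM, and Sema6d, a semaphorin, 156 and 404 CPM. In the other libraries these genes had few UMIs. Robo3 had 1 of 46298 UMIs in Trhr nuclei and 12 of 94342 in Lct nuclei with doxorubicin, and 6 of 38461 and 12 of 70736 in control, so in control its share of UMIs was about equal in both. Kcnmb2 had 2 UMIs in Trhr nuclei with doxorubicin and none in control.

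**Figure D5:**
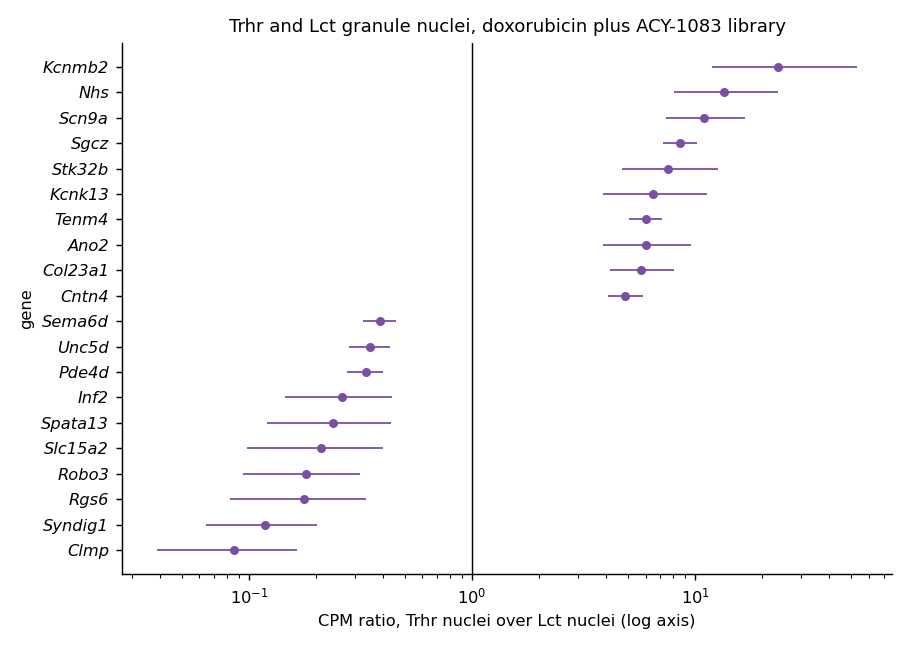
CPM ratio (log axis) of Trhr over Lct granule nuclei in the doxorubicin plus ACY-1083 library for the 10 genes named as highest and the 10 named as lowest; bars are 95% intervals for counting error. The highest lie between 4.88 and 23.7 and the lowest between 0.0855 and 0.387.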

How the data were processed

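For every barcode the authors deposited whole-number UMI counts of each gene. The version in the headers is Cell Ranger 5.0.0 for doxorubicin plus ACY-1083 and 4.0.0 for both other libraries, per the file headers, while Cell Ranger 6.0.0 with mm10 stands in the submitters' processing notes. Intron counting and strand handling are not given in the sources. Intron lengths and coordinates are from GENCODE vM21 (GRCm38), which held 32235 of 32285 genes. Members, gene lists and tests were chosen with earlier results of these data known.

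CPM are sums over the nuclei of 1 class in 1 library, relative to all UMIs of those nuclei. CPM have exact Poisson intervals and shares and CPM ratios exact Clopper-Pearson intervals, covering counting error only. Between libraries, and between Trhr and Lct nuclei, called means at least 1.5-fold either way at a mean of at least 20 CPM. Against pyramidal nuclei a gene needed at least 20 CPM in every library in either class. It was called if its log2 ratio passed 1.5-fold in all 3 libraries, so it could have no UMI in pyramidal nuclei. All log2 ratios of CPM have 0.5 UMI added. A floor of 3 UMIs limits a count of 0. Splits within granule nuclei were tested with edgeR 4.0.16 (R 4.3.3), quasi-likelihood with library as block and Benjamini-Hochberg adjustment. The p-values measure the spread between 3 libraries that also differ in treatment. Calculations were tested on simulated data.

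Genes were named by rank of the interval bound nearest to 1, leaving out marker lists, mitochondrially encoded, ribosomal protein, hemoglobin and predicted genes and those that turned direction after thinning: 12 each way for doxorubicin against control (1 of those lower is not reported here) and 6 each way for doxorubicin plus ACY-1083 against doxorubicin. Of each list the 3 members with the largest log2 ratio could be named, and of granule against pyramidal nuclei the 8 highest and 8 lowest. Of the splits the 10 with the smallest p each way were named. Between Trhr and Lct nuclei 10 each way were named by interval bound, with marker lists kept in. List members named in the comparison with pyramidal nuclei, and Ndufb4, were chosen after their values were seen. Doublets were not removed in the main values. Scrublet in scanpy 1.11.5 set thresholds that marked 1 to 3 barcodes per library, so the alternative removed the top 5% of scores, and kept barcodes with at least 300 genes and under 5% mitochondrial UMIs.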

Additional observations from a re-analysis of the deposited data

How the results depend on the processing

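Shares were 8.20%, 6.17% and 6.09% after thinning in the doxorubicin plus ACY-1083, doxorubicin and control libraries, 16.7%, 3.87% and 3.56% with at least 4 markers, and 23.1%, 18.2% and 17.5% with at least 2. For doxorubicin against control, genes at least 1.5-fold higher and lower numbered 561 and 852 after thinning, 273 and 436 with at least 4 markers, 68 and 51 with at least 2, 168 and 99 with TMM, 23 and 11 at 50 CPM, and 555 and 646 at 5 CPM. For doxorubicin plus ACY-1083 against doxorubicin they were 1192 and 1460 at 50 CPM and 3073 and 5118 at 5 CPM, and with TMM, which turned the balance of higher and lower calls, 2869 and 1644; TMM shifted every log2 ratio by 0.50. Among genes with under 1 kb of intron 2 were higher with TMM, 0 higher and 143 lower at 50 CPM, 9 and 798 at 5 CPM, and 0 and 130 without any intron. Scaled to short genes, a choice made after seeing the data, 8 and 12 were. Gng3 turned to a ratio of 1.07 with TMM, against 0.752.

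Leaving out 1 library, activity-marked nuclei had 6 to 45 genes higher and 1 to 6 lower, and immature-marked nuclei 3 to 13 and 0 to 9. For activity, DESeq2 called 8 and 0 (164 at an unadjusted p under 0.05), no filter 14 and 13, and the cell filter 19 and 5. For immature marks DESeq2 called 2 and 0 (137 at an unadjusted p under 0.05), no filter 3 and 3, and the cell filter 8 and 3. After thinning 0 and 301 were called from 1 marked nucleus per library. The causes were not tested. Thinned activity marks and immature marks at 3 genes were not run for want of nuclei, nor the Trhr and Lct alternatives, as their sums were under 20 nuclei. Of 36 named ratios, the cell filter kept 36 within their counting interval, thinning 24 and TMM 24. Genes that turned direction after thinning had been left out of the naming beforehand. TMM moved 11 ratios past the interval and turned 1, all of them doxorubicin plus ACY-1083 over doxorubicin. It shifted log2 ratios of doxorubicin over control by 0.07 only. No paired analysis was possible because each group has 1 library. Depth limits the doxorubicin and control libraries most.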
